A study of Mus musculus with 20 samples.

Results

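The genes described here encode the proteins of the cytoplasmic ribosome. They were chosen by name alone, as rows of the count table whose symbol is Rpl or Rps with a number and an optional a or x, Rplp with 0, 1 or 2, or Rpsa. The rule found 76 genes among the 34255 of the table, 46 of the large subunit and 30 of the small subunit, and every one of the 76 had counts. They were compared across 5 groups of 4 libraries each. All 20 libraries came from kidneys of adult male WT mice of strain C57BL6/OlaHsd that received no treatment. Laser microdissection of the cortex gave arterioles, glomeruli and post-capillary venules, chosen by their shape, and peritubular capillaries, chosen by a lectin that stains endothelium, and whole kidney was the reference. The labels call the libraries of a group biological replicates without saying which mouse each came from. By the study's methods, the compartments were collected from slides of the same mice, so groups share mice in a way that could not be traced here, and the p-values measure the spread between these libraries.

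A ribosome consists of a small subunit, which reads the mRNA, and a large subunit, which joins the amino acids. Each holds ribosomal RNA and 1 copy of most of its proteins, while the proteins of the flexible P stalk are present in several copies and recruit the translation factors. The mRNAs of nearly all ribosomal proteins in mammals begin with a C followed by a run of pyrimidines, the 5′ terminal oligopyrimidine (TOP) motif, through which mTORC1 controls their translation together. Their transcripts are short and abundant in every cell type, and the genome holds many processed copies of them.

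The stretches around the annotated starts are shown to make the start motif visible in genes that the results below turn on. RefSeq gave starts for 56 of the 76 members, 66 starts in all. Searched on the transcribed strand only, 27 of these members (48.2%) had a C within 5 bases of a start that was followed by at least 4 further C or T, against 21.2% of all 27025 genes of the promoter table. Among the mRNAs of translation factors and other TOP genes the share was 6 of 14 (42.9%), and among mitochondrial ribosomal proteins, whose mRNAs are not known for the motif, 17 of 69 (24.6%). Each line gives 10 bases before and 20 bases from the start in build GRCm38.p6, 5′ to 3′, with the pyrimidine run in capitals. Rplp2 lies at chr7:141447641-141447670 (+), Rpl38 at chr11:114668570-114668599 (+), Rps23 at chr13:90923112-90923141 (+), Rps21 at chr2:180257369-180257398 (+), Rps6 at chr4:86857348-86857377 (-), Rpl37a at chr1:72711250-72711279 (+) and Rpl10 at chrX:74270806-74270835 (+).
Rplp2: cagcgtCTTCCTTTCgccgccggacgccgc
Rpl38: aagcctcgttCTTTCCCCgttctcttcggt
Rps23: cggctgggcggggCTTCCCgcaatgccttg
Rps21: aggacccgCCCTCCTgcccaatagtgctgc
Rps6: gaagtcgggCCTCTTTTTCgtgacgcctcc
Rpl37a: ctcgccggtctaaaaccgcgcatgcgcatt
Rpl10: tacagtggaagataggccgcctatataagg
The Rpl37a and Rpl10 windows held no such run, which says only that these letters are not within 5 bases of that annotated start. The GENCODE model of Rpl37a begins further downstream than the RefSeq start. Rps21 has a second annotated start, at chr2:180257439-180257468, whose window held no run. Of the members called higher in arterioles against whole kidney below, 6 of 14 with a start had a run, beside 21 of 42 of the others. The share was 24.0% among the genes tested below. A run in this window is a match of letters, not a measured start of transcription.

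The libraries held 4639090 to 12283098 counts. Genes with a count numbered 11339 to 14164 in microdissected libraries and 18272 to 20474 in whole kidney. Marker genes fitted the labels of arterioles and glomeruli. No marker particular to venules was used, and the pan-endothelial shares of venule libraries (0.0509 to 0.110%) overlapped those of capillary libraries (0.0370 to 0.0977%). Smooth muscle genes took 1.98% of arteriole counts and at most 0.233% on average elsewhere, podocyte genes took 1.06% of glomerular counts, and pan-endothelial genes took 0.287%, 0.409% and 0.0818% of arteriole, glomerular and venule counts against 0.0469% in whole kidney. In peritubular capillary libraries, however, pan-endothelial genes took 0.0564% ± 0.0281 (SD, n = 4) of counts, about the level of whole kidney (0.0469% ± 0.00234), and proximal tubule genes took 7.30% ± 0.866, more than in whole kidney (4.24% ± 0.162). Of the 10 pan-endothelial genes, 0 passed the test in capillaries against whole kidney, 8 had a log2 fold change above 0 and the median was 0.76, beside 0 passing, 10 above 0 and a median of 1.13 in venules. Because of the tubule share of the 4 capillary libraries, results that rest on them are also given without them. Microdissected libraries were prepared with a low-input version of the kit and more amplification cycles than whole kidney libraries, so any difference from whole kidney cannot be told apart from that difference in preparation.

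As a family, the 76 genes took the largest share of counts in arterioles and the smallest in peritubular capillaries. Values per library are given throughout in the order of the library numbers 93, 96, 98 and 100. In arterioles the members summed to 3.44, 3.47, 4.12 and 3.61% of all counts, a mean of 3.66% ± 0.316 (SD, n = 4). In glomeruli they summed to 3.39, 3.28, 3.76 and 2.75% (3.29% ± 0.417), and in venules to 2.80, 2.87, 3.54 and 2.73% (2.98% ± 0.372). Every arteriole library lay above every whole kidney library, whereas the glomerular and venule values overlapped those of the arterioles. Peritubular capillaries gave 1.79, 1.75, 1.95 and 2.07% (1.89% ± 0.148), below every other library of the series. Whole kidney gave 2.68, 2.60, 2.81 and 2.61% (2.68% ± 0.0947), the narrowest group. Each share rests on 120171 to 396813 counts of the members, so that its 95% Wilson interval was at most 0.0336 percentage points wide. The SD of every group exceeded this counting error, though some libraries, such as whole kidney 96 and 100, had overlapping intervals. These shares are descriptions of the chosen family and carry no test. In tissue samples, fewer cells that make these mRNAs and less of them per cell cannot be told apart.

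The family's total is a share of a sum that other genes also set. Erythrocyte genes took 2.40% ± 1.29 of arteriole, 3.33% of venule, 1.55% of glomerular, 0.113% of capillary and 0.353% of whole kidney counts, and mitochondrially encoded genes 7.06, 13.7, 5.60, 9.93 and 13.6%, in the same order. With both kinds removed from the total, the family's share averaged 4.04% in arterioles, 3.59% in venules, 3.55% in glomeruli, 2.10% in capillaries and 3.11% in whole kidney, so the arterioles stayed first and the capillaries last, with venules and glomeruli side by side. The order below the arterioles also depended on the scaling, the last place included. TMM scaling, which sets libraries to a common level over most genes and was used for all tests, gave family sums of 4.78% ± 1.08 in arterioles, 2.99% ± 0.108 in venules, 2.59% ± 0.241 in glomeruli, 2.30% ± 0.671 in capillaries and 2.26% ± 0.0815 in whole kidney. Under it the capillary libraries, at 1.80, 1.77, 2.41 and 3.20%, straddled the whole kidney ones, whose mean was now the lowest, and arteriole 96 stood highest of all at 6.39%.

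**Figure D1:**
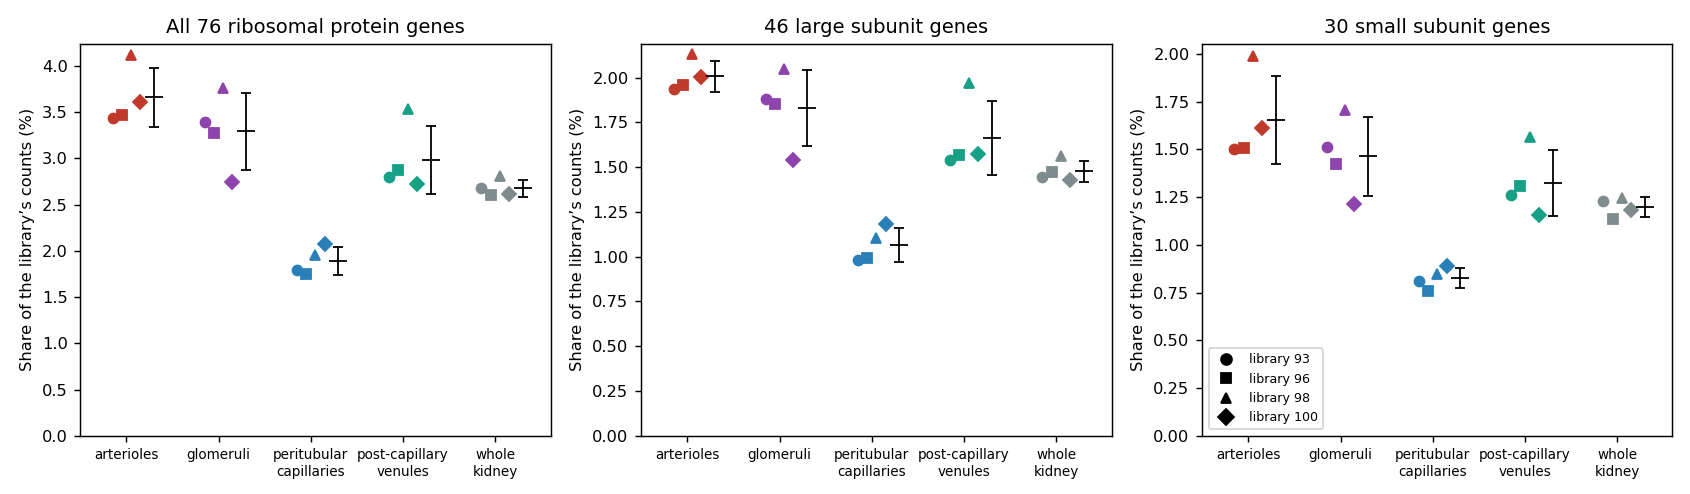
Summed counts of the 76 cytoplasmic ribosomal protein genes as a percentage of all counts (y axis, percent), for each library of the 5 groups (x axis, n = 4 each), with the mean and SD. All 4 arteriole libraries, at 3.44 to 4.12%, lie above the whole kidney libraries, at 2.60 to 2.81%, and all 4 peritubular capillary libraries, at 1.75 to 2.07%, lie below them.

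Both subunits shared this order. Large subunit genes took 2.01% of counts in arterioles, 1.83% in glomeruli, 1.06% in peritubular capillaries, 1.66% in venules and 1.48% in whole kidney. Small subunit genes took 1.65, 1.46, 0.826, 1.32 and 1.2%. The ratio of large to small subunit counts was 1.22 ± 0.106 in arterioles, 1.25 ± 0.0421 in glomeruli, 1.29 ± 0.0523 in capillaries, 1.26 ± 0.0717 in venules and 1.23 ± 0.0545 in whole kidney (SD, n = 4 each), and the ranges of the 5 groups overlapped. The mitochondrial ribosome, a separate machine with its own proteins, followed another order in shares of all counts. The summed share of its 78 genes was lowest in arterioles (0.351%), close to glomeruli (0.360%), and highest in whole kidney (0.475%). This order too depended on the scaling. With TMM the median log2 fold change of these genes against whole kidney was lowest in glomeruli (-0.55), beside -0.11 in arterioles.

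Against whole kidney, arterioles had higher levels of many single members and lower levels of none. With edgeR's quasi-likelihood test over 13813 genes and a Benjamini-Hochberg adjusted p (FDR) under 0.05, 21 of the 76 members were higher (27.6%, against 5.78% of all genes tested) and 0 were lower (5.55% of all genes), and at an unadjusted p under 0.05 the counts were 37 and 0. The log2 fold change was above 0 for 69 members. The median over the members was 0.97, beside 0.22 over all genes tested. Scaling by library totals instead lowered the 2 medians to 0.38 and -0.32, and scaling to the members' own sum, which by construction brings their median near 0, gave -0.08 and -0.79, with 1 member called higher and 2, Rps24 and Rpl32, lower. The calls were 11 of 46 large and 10 of 30 small subunit genes, with fold changes between 2.22 and 5.25. All 4 arteriole libraries lay above all 4 whole kidney libraries for 33 members (43.4%, against 8.45% of all genes), which included each of the 21, and below them for 0 members, against 28% of all genes. The genes tested were not matched to the members in count level, which limits these comparisons. Without the filter on low counts their median was -1.23, beside 0.99 for the members. With the library number as a replicate block it was -0.69, beside 0.89. DESeq2 called 32 members higher and 0 lower. Markers of smooth muscle (8 of 8 called), erythrocytes (5 of 6), endothelium (7 of 10) and fibroblasts (4 of 6) were higher in the same arteriole libraries. Of the endothelial markers 1 was called lower, and of 8 podocyte markers 2 were called higher and 3 lower. The part of these cell types in the members' values was not tested.

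**Figure D2:**
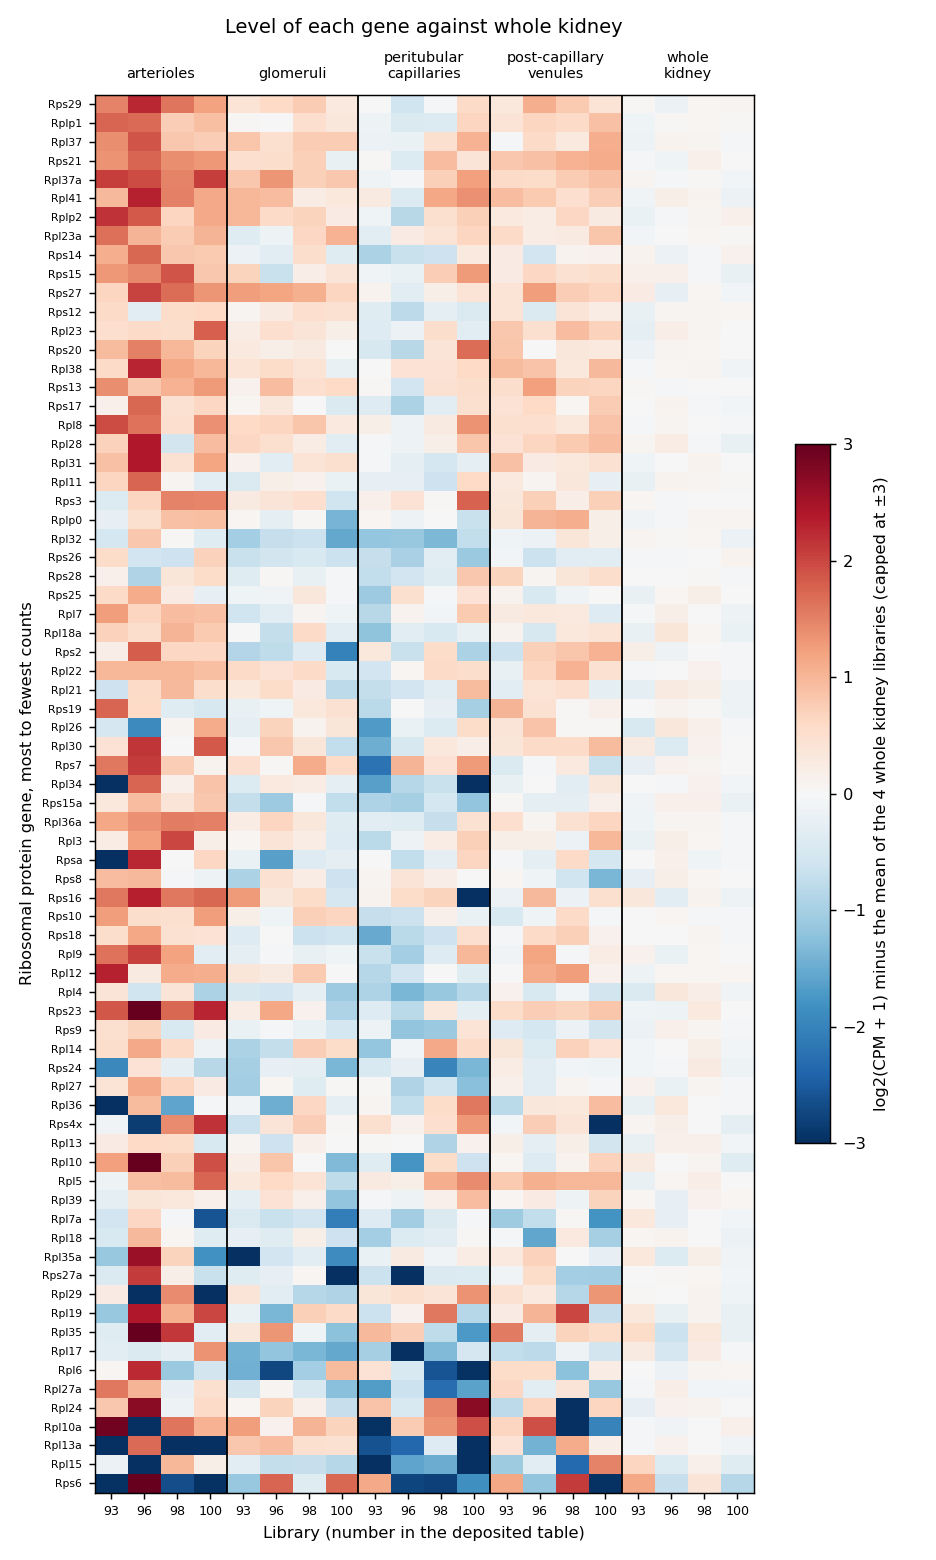
Log2(CPM + 1) of each member minus its mean over the 4 whole kidney libraries (color scale, capped at the ends), where CPM is counts per 1000000 of the TMM-scaled library total, with one row for each of 74 members from most to fewest counts and one column per library. The arteriole columns lie mostly above 0, with medians of 0.56, 1.19, 0.64 and 0.75, and the whole kidney columns vary least. Scaling by library totals lowers the arteriole columns, and scaling to the members' own sum would by construction center all columns near 0.

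In the P stalk both arm proteins rose in arterioles, while the base did not pass the test. Rplp1, one of the acidic proteins that form the flexible arms, gave 3091, 2982, 1515 and 1717 CPM (counts per 1000000 of the TMM-scaled library total) in arterioles and 834, 939, 954 and 939 CPM in whole kidney (2326 ± 825 against 916 ± 55.4, SD, n = 4), without overlap. It rose 2.54-fold (log2 fold change 1.34, SE 0.30, FDR 0.00274). Its levels were 938, 903, 1302 and 1159 CPM in glomeruli, 824, 680, 684 and 1440 in peritubular capillaries and 1207, 1436, 1367 and 1686 in venules, so the highest venule library reached into the arteriole range. Rplp2, its partner in the arms, gave 2521, 2015, 877 and 1231 CPM in arterioles against 490, 543, 589 and 623 in whole kidney, a 2.96-fold rise (log2 fold change 1.57, SE 0.35, FDR 0.00282). For both arm proteins arteriole libraries 93 and 96 were higher than 98 and 100. Rplp0, the base that anchors the arms to the ribosome, gave 303, 507, 668 and 670 CPM in arterioles and 334, 346, 382 and 381 in whole kidney, overlapping (log2 fold change 0.57, SE 0.40, FDR 0.32), and its lowest arteriole library was one of those in which the arms were highest. Whether the base and the arms differed in their change was not tested.

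Among the other large subunit genes, the smallest p belonged to Rpl37a, a zinc-binding protein whose gene lies at chr1:72711290-72713813 on the plus strand. Its levels were 2166, 1998, 1462 and 2199 CPM in arterioles, 902, 1308, 847 and 904 in glomeruli, 473, 503, 852 and 1214 in peritubular capillaries, 774, 763, 884 and 949 in venules, and 552, 497, 534 and 492 in whole kidney. The 4 arteriole libraries lay above the other 16. Against whole kidney Rpl37a rose 3.77-fold in arterioles (log2 fold change 1.92, SE 0.32, FDR 6.52e-05), and it was the one member of the 21 called under each of the 29 alternative settings, scaling to the members' own sum included (0.87, FDR 0.0316).

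Rpl41, the smallest ribosomal protein, gave 1057, 2667, 1533 and 1191 CPM in arterioles against 497, 614, 576 and 480 in whole kidney (log2 fold change 1.57, SE 0.36, FDR 0.0031). Rpl38, required in the mouse embryo for the translation of particular Hox mRNAs, gave 509, 1687, 770 and 683 against 328, 360, 365 and 321 CPM (1.41, SE 0.38, FDR 0.0131). Rpl37 gave 2098, 2932, 1395 and 1333 against 720, 861, 838 and 780 CPM (1.28, SE 0.32, FDR 0.0081). In all 3, arteriole 96 was the highest library and no arteriole library reached down to whole kidney.

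Rpl10, which joins the large subunit last and helps to shape its catalytic centre, showed a wide spread at chrX:74270812-74273135 (+). It gave 270, 976, 186 and 440 CPM in arterioles and 138, 113, 120 and 88.8 in whole kidney, a 4.07-fold rise (log2 fold change 2.02, SE 0.59, FDR 0.0237). The arteriole values spread widely among themselves but did not overlap whole kidney. All of the 50-base words in the last 300 bases of Rpl10 transcripts also occur in transcripts of other genes of the GENCODE M21 annotation, so its reads could be shared with processed copies. Such sharing was common in the family: 35 of the 76 members had more than 50% of their words in other genes, 24 had none, and the median was 36.3% for the 21 called members and 32.7% for the other 55. Rpl37a shared 4.38% and Rplp2 6.37% of their words, but Rplp1 shared 66.9%, Rpl38 65.3%, Rpl41 62.9% and Rps29 48.6%.

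The largest fold belonged to a small subunit gene. Rps23, which lies at the decoding centre where the codon is read, gave 473, 1189, 427 and 629 CPM in arterioles and 117, 116, 158 and 127 in whole kidney (680 ± 351 against 129 ± 19.7). It rose 5.25-fold (log2 fold change 2.39, SE 0.50, FDR 0.00118). Its levels were 150, 286, 141 and 66.6 CPM in glomeruli, 98.1, 73.5, 161 and 106 in capillaries and 188, 214, 205 and 229 in venules, all below the lowest arteriole library.

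Rps29, a small zinc-binding protein of the head of the subunit, had its gene at chr12:69157722-69159186 on the minus strand. It gave 2825, 4832, 3056 and 2297 CPM in arterioles and 1030, 886, 1043 and 1057 in whole kidney, a rise of 3.24-fold (log2 fold change 1.70, SE 0.29, FDR 8.08e-05). In glomeruli it gave 1334, 1523, 1695 and 1232 CPM, in capillaries 1004, 662, 972 and 1484, and in venules 1242, 2146, 1723 and 1335. Here too no arteriole value overlapped any other library.

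Rps21 gave 1715, 2255, 1766 and 1663 CPM in arterioles against 653, 618, 749 and 667 in whole kidney, with no overlap (log2 fold change 1.46, SE 0.31, FDR 0.00125). Rps27, one of the zinc-binding proteins of the subunit, gave 564, 1472, 1148 and 900 against 430, 305, 378 and 344 CPM (1.49, SE 0.35, FDR 0.00472). The other called members of the small subunit included Rps13, Rps14, Rps15 and Rps16, each without overlap between arterioles and whole kidney. All 50-base words at the 3′ end of Rps27 also occur in other genes. Rps14 overlaps the Ndst1 gene on the opposite strand, and without a stated strand setting it is not known whether reads of these genes were kept apart.

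**Figure D3:**
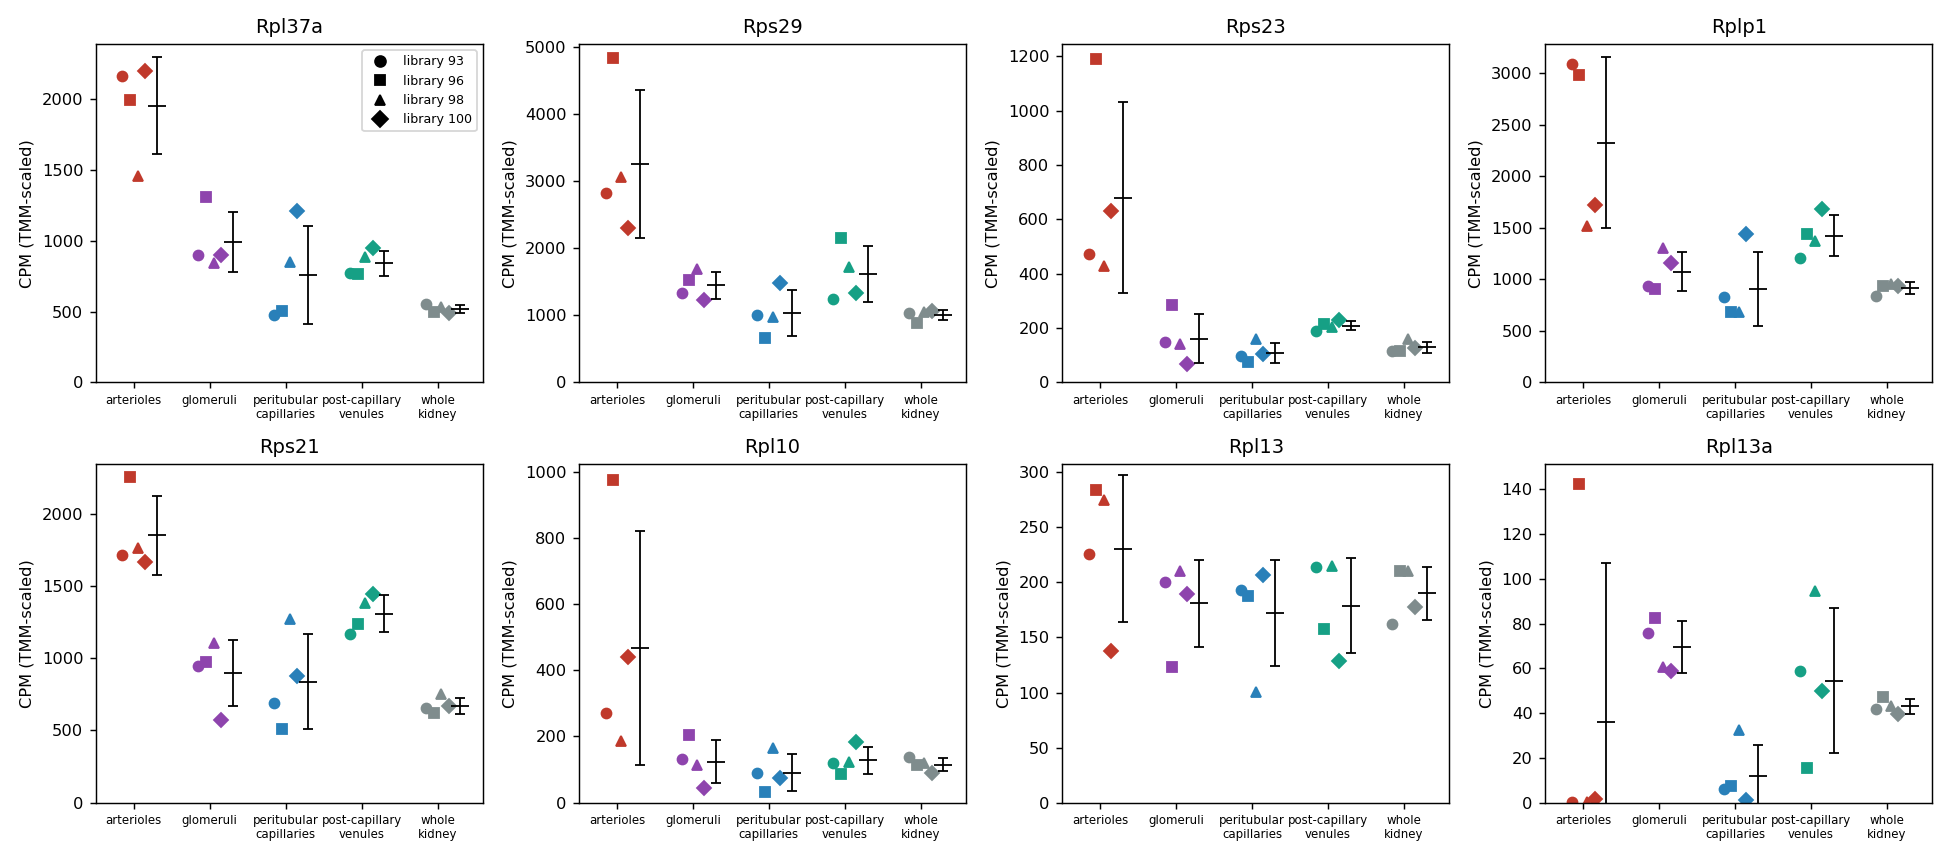
CPM on the TMM scale (y axis, each panel from 0) of Rpl37a, Rps29, Rps23, Rplp1, Rps21, Rpl10, Rpl13 and Rpl13a in the 20 libraries, one symbol per library number, with group mean and SD (n = 4; a bar that would pass below 0 is cut there). Arterioles stand above the other 4 groups for Rpl37a, Rps29, Rps23 and Rps21, Rpl13 is even, and Rpl13a in arterioles rests on library 96 at 142 CPM against 0.112 to 1.61 in the other libraries of that group.

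The calls were unevenly spread over count levels. Ordered by mean CPM and divided in groups of 19, the members called higher in arterioles numbered 15, 1, 4 and 1, from the most to the least counted. The medians of the log2 fold change were 1.41, 0.75, 0.90 and 0.79, so the 19 most counted genes also had the largest change. The median SD of log2 CPM among arteriole libraries was 0.45, 0.70, 0.61 and 1.39 in the same order, against 0.12, 0.14, 0.16 and 0.18 in whole kidney. The count level of a gene was measured over all libraries, arterioles included, so it is not independent of the change. The 6 most counted members together made up 26.9% ± 1.71 of the family's counts in arterioles and 25.5% ± 0.857 in glomeruli. Their share was 23.5% ± 2.76 in capillaries, 24.2% ± 1.98 in venules and 19.7% ± 0.367 in whole kidney (SD, n = 4). The 6 were picked by mean CPM over all libraries, most of them microdissected, so the lower share in whole kidney is not independent of that choice.

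The 55 members not called in arterioles included several whose group means lay close together. Rpl13 had the smallest spread of group means, with 226, 284, 275 and 138 CPM in arterioles and 162, 210, 210 and 178 in whole kidney (log2 fold change 0.28, SE 0.48, FDR 0.72). Rpl39, which lines the exit tunnel of the new protein chain, gave 135, 213, 205 and 181 against 172, 139, 180 and 171 CPM (0.15, FDR 0.858). Rps25 gave 533, 776, 420 and 301 against 303, 374, 404 and 351 CPM (0.50, FDR 0.395). The values of these genes overlapped between the 2 groups. Rpl21 was also among the 4 most even members, with 195, 449, 590 and 437 CPM in arterioles and 246, 365, 341 and 274 in whole kidney. For 7 members, Rpl13a, Rpl15, Rpl29, Rpl36, Rpl4, Rpl7a and Rps24, the log2 fold change was below 0, down to -0.43 for Rps24, and none passed the test.

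Members with particular roles outside the bulk of the ribosome did not pass the test either. Rpsa, also known as the laminin receptor, gave 25.6, 1291, 267 and 415 CPM in arterioles around a whole kidney level of 271, 298, 246 and 258 (log2 fold change 0.90, SE 0.59, FDR 0.29). Rps27a, made as a fusion with ubiquitin, gave 96.1, 560, 147 and 82.3 against 130, 133, 137 and 124 CPM (0.76, FDR 0.512). In both, arteriole 96 was far above the other 3 arteriole libraries. Rps6, the best known substrate of the S6 kinases, was barely counted at all, with 1906 counts in the 20 libraries together. It gave 0, 85, 0.225 and 0 CPM in arterioles and 16.2, 3.8, 9.18 and 3.31 in whole kidney. No difference could be shown with so few counts of the gene (1.39, SE 1.94, FDR 0.651). Of the words at the 3′ end of Rps6, 83.3% also occur among 11 other genes. The part of this sharing in its low counts was not tested.

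**Figure D4:**
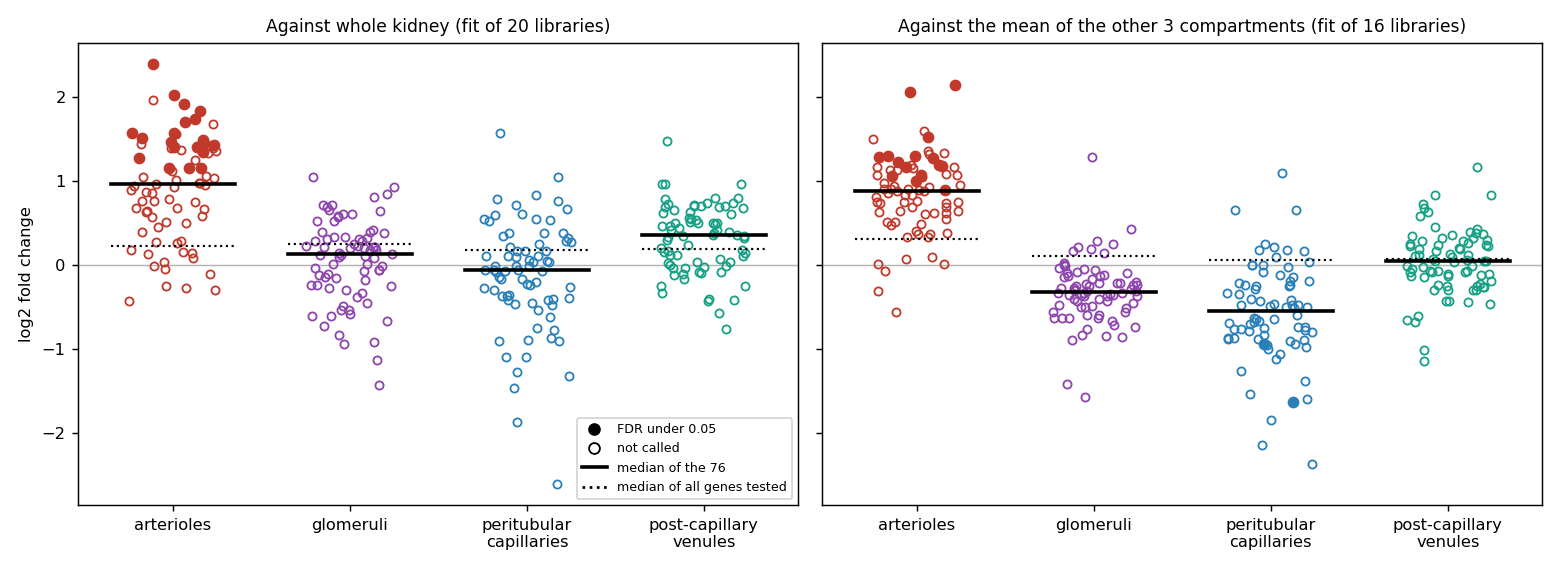
Log2 fold change (y axis) of each of the 76 members, one point each, in the 4 compartments against whole kidney (left) and against the mean of the other 3 compartments (right), with filled points for FDR under 0.05, a solid line at the members' median and a dotted line at the median of all genes tested. Against whole kidney 21 members were called in arterioles and 0 in the other compartments, which scaling to the members' own sum reduces to 1 higher and 2 lower in arterioles.

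Compared with the other 3 compartments, whose libraries used the same low-input version of the kit, arterioles again had the higher levels. By the study's methods, a smaller area was cut for arterioles and capillaries than for glomeruli and venules. The capillaries also came from a separate, lectin-stained slide. These differences in collection cannot be told apart from those between compartments. In a fit of the 16 microdissected libraries with 12179 genes, 15 members were higher (19.7%, against 8.11% of all genes tested) and 0 lower (3.23% of all genes), with 41 and 0 at an unadjusted p under 0.05 and 39 and 0 called by DESeq2. The median log2 fold change was 0.89 over the members and 0.31 over all genes, 73 members were above 0, and the 2 medians were 0.44 and -0.05 under library totals and, as that scaling forces, -0.04 and -0.54 with the members' own sum. Because the capillary libraries lie in this reference, the fit was repeated without them, an alternative chosen after seeing the data, which left 9 members higher and a median of 0.71. This comparison shares the arteriole libraries with the one above, so the 13 genes called in both are no independent repeat.

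Among the 15 were 7 large and 8 small subunit genes, with log2 fold changes of 0.90 to 2.14. For Rps23 the change was 2.14 (SE 0.40, FDR 0.000202), for Rps29 1.28 (SE 0.24, FDR 0.000263) and for Rpl37a 1.19 (SE 0.27, FDR 0.00243). Rpl10 followed with 2.05 (SE 0.47, FDR 0.00295), although its glomerular libraries, at 131, 204, 115 and 44.8 CPM, reached into the arteriole range. Rps14 gave 1312, 2010, 1080 and 1056 CPM in arterioles, 544, 493, 886 and 474 in glomeruli, 319, 387, 397 and 753 in capillaries and 728, 411, 663 and 672 in venules (1.29, SE 0.30, FDR 0.00319), with no overlap. The arm proteins Rplp1 and Rplp2 were also called, at 1.06 (FDR 0.00516) and 1.17 (FDR 0.00673). In 9 of the 15 all arteriole libraries lay above the other 12, and in Rpl10, Rpl31, Rpl9, Rplp1, Rplp2 and Rps15 they overlapped. Rps15a and Rpl9 were called here but not against whole kidney (0.63, FDR 0.279 and 1.37, FDR 0.0656).

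Asking for any difference among the 4 compartments, 11 of 76 members passed, beside 11.4% of all genes tested, so the family held a share of such genes near the background. With 23 members at an unadjusted p under 0.05, the called ones included Rps29 (FDR 0.0011), Rps23 (0.00125), Rpl37a (0.0134), Rplp1 (0.015), Rps14 (0.0168), Rpl10 (0.0178), Rplp2, Rpl31 and Rps21.

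Peritubular capillaries had the lowest levels of several members, but few differences passed the test. Against whole kidney 0 members were called higher (0.0869% of all genes) and 0 lower (0.0145%), by edgeR and by DESeq2, with 1 and 5 at an unadjusted p under 0.05. The median log2 fold change was -0.06, beside 0.18 over all genes, -0.58 beside -0.27 with library totals, and 0.03 beside 0.02 without capillary library 93. All 4 capillary libraries lay above whole kidney for 1 member (6.08% of all genes) and below it for 12 (15.8% of members, 18.3% of all genes). The 2 smallest p-values were those of Rpl32, with 217, 219, 191 and 288 CPM against 513, 500, 505 and 427 (-1.09, SE 0.39, FDR 0.27), and Rpl4, with 173, 127, 150 and 183 against 244, 415, 378 and 308 (-1.09, SE 0.45, FDR 0.309). Both sets of libraries were apart, and neither gene passed.

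Against the other 3 compartments 2 members were lower in capillaries (2.63%, against 2.91% of all genes) and 0 higher (4.3% of all genes), a share no higher than the background. DESeq2 called 8 lower and 0 higher, and 21 and 0 had an unadjusted p under 0.05. The median was -0.55, beside 0.07 over all genes, and 64 members were below 0. Rps29, at the 1004, 662, 972 and 1484 CPM given above, was one of the 2 and fell by 0.93 on the log2 scale (SE 0.27, FDR 0.0277), with capillary 100 reaching above glomerular libraries. Leaving out 1 library ended both calls in some cases: 0 members were called without capillary library 93, 96 or 98, and 5 without arteriole library 93. The proximal tubule share, given above, was highest on average in this group. In its single libraries it was 6.28, 6.97, 8.29 and 7.66%, beside family shares of 1.79, 1.75, 1.95 and 2.07%. Within the group the lowest family shares thus lay in the libraries with the lowest tubule shares. The part of the tubule share in these levels was not tested.

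In glomeruli no member passed the test in either comparison. Against whole kidney 0 members were called higher (1.59% of all genes) and 0 lower (1.5%) by edgeR and by DESeq2, with 3 and 2 at an unadjusted p under 0.05, and edgeR's newer form of the test called 2 higher. The median log2 fold change was 0.13, beside 0.25 over all genes, and 45 members were above 0. It was -0.01 without glomerular library 96, and -0.06 beside 0.07 with scaling to the members' sum, which brings their median near 0 by construction. All 4 glomerular libraries lay above whole kidney for 10 members (13.2%, against 14.6% of all genes) and below for 7 (9.21%, against 18%). The smallest p-values were those of Rps27, with 862, 828, 758 and 563 CPM against 430, 305, 378 and 344 (1.05, SE 0.35, FDR 0.092), and of Rpl37a (0.93, SE 0.31, FDR 0.0922). For both genes the groups did not overlap, but the test across all genes was not passed. A fit of only the 8 libraries compared called 4 members higher and 6 lower.

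Against the other 3 compartments 0 members were called higher in glomeruli (2.46% of all genes) and 0 lower (1.33%), with 0 and 2 at an unadjusted p under 0.05 and 0 and 1 called by DESeq2. The median was -0.32, beside 0.11 over all genes, and it turned to 0.25, beside 0.65, with library totals. The members' median thus changed its sign with the scaling. It lay below that of all genes under both, but a scaling moves the 2 medians nearly alike, so this is no separate check. Without the capillary libraries it was also below (-0.49 beside 0.02). Rps2, near the entrance where mRNA is threaded in, had the smallest p. It gave 159, 173, 223 and 71.2 CPM in glomeruli, 339, 1041, 456 and 450 in arterioles, 364, 184, 428 and 151 in capillaries, 187, 482, 526 and 608 in venules and 333, 266, 297 and 284 in whole kidney (-1.41, SE 0.46, FDR 0.083). It was the member that DESeq2 called (-1.57, FDR 0.0203). Rpl35a had a larger difference with a wider spread, at 12.6, 73.3, 87.9 and 29.0 CPM in glomeruli and 49.2, 664, 174 and 30.3 in arterioles (-1.57, SE 0.72, FDR 0.276).

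Post-capillary venules had a median shift between that of arterioles and 0, with no member past the test. Against whole kidney 0 members were called higher (0.217% of all genes) and 0 lower (0.0217%), with 9 and 0 at an unadjusted p under 0.05. The median log2 fold change was 0.36, beside 0.19 over all genes, and 58 members were above 0. With library totals the medians were 0.14 and -0.06, and with the members' sum, which brings their own median near 0 by construction, -0.05 and -0.21. All 4 venule libraries lay above whole kidney for 24 members (31.6%, against 5.81% of all genes) and below for 2 (2.63%, against 14.4%). DESeq2 called 1 member higher. Rps21 gave 1168, 1236, 1380 and 1447 CPM, all above the 618 to 749 of whole kidney (0.96, SE 0.30, FDR 0.279). This difference did not pass the test over all genes, of which few passed in venules at all, and a fit of only the 8 libraries compared called 13 members higher.

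Against the other 3 compartments venules had 0 members called higher (0.369% of all genes) and 0 lower (0.181%) by edgeR and by DESeq2, with 1 and 1 at an unadjusted p under 0.05. The median log2 fold change of 0.05 was near that of all genes, 0.07. It was -0.03, beside 0.01, with the size factors of DESeq2 and -0.20, beside -0.09, without the capillary libraries. Rps7, with one of the 2 smallest p-values, gave 161, 211, 266 and 136 CPM in venules (-1.0, SE 0.49, FDR 0.397).

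**Figure D5:**
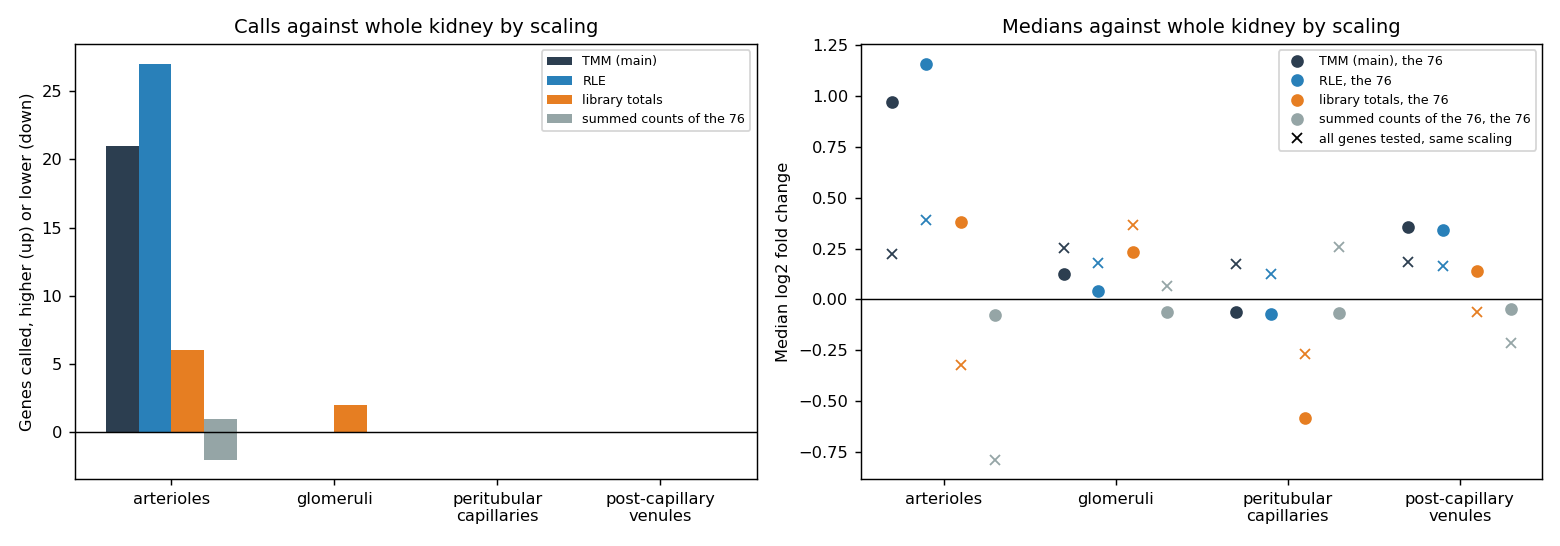
Comparison of the 4 compartments with whole kidney under 4 scalings, TMM, the size factors of DESeq2 (RLE), library totals and the members' own summed counts, with the number of members called higher (up) or lower (down) on the left and the median log2 fold change of the members (circles) and of all genes tested (crosses) on the right. In arterioles 21, 27, 6 and 1 members were called higher. The members' median of 0.97, 1.16, 0.38 and -0.08 lay above that of all genes under each scaling, which moves both medians nearly alike.

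A scaling moves all genes alike, so the gap between the members and all genes in arterioles changed less than either value alone. Against whole kidney the median of the members was 0.97, 1.16, 0.38 and -0.08 with TMM, DESeq2's size factors, library totals and the members' sum, and the median of all genes was 0.22, 0.39, -0.32 and -0.79. TMM factors ran from 0.545 to 1.02 in arterioles, 0.648 to 0.997 in capillaries, 0.888 to 1.17 in venules, 1.14 to 1.22 in whole kidney and 1.21 to 1.34 in glomeruli. Arteriole 96 had the lowest factor, and its members' median over the whole kidney level was 1.19, beside 0.56, 0.64 and 0.75 in arterioles 93, 98 and 100. The same median was 0.04, 0.10, 0.22 and -0.25 in glomeruli, -0.38, -0.41, -0.04 and 0.40 in capillaries and 0.27, 0.31, 0.32 and 0.31 in venules. Capillary 100, which has the lowest factor of its group at 0.648, thus stood apart from the other capillary libraries.

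Agreement between libraries of a group differed widely. The median over members of the SD of log2(CPM + 1) was 0.68 in arterioles, 0.59 in capillaries, 0.41 in glomeruli, 0.36 in venules and 0.14 in whole kidney. An SD above 1 was found for 22, 14, 5, 7 and 0 members in the same order. A count of 0 occurred in 3 of 304 values in arterioles and 1 of 304 in venules, and nowhere else.

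A few thinly counted members showed this spread in the extreme. Rpl13a, which in inflammation leaves the ribosome to silence mRNAs, gave 0.213, 142, 0.112 and 1.61 CPM in arterioles, while glomeruli held an even 75.8, 82.5, 60.6 and 58.8 and whole kidney 41.9, 47.3, 43.0 and 39.6. Capillaries gave 6.21, 7.52, 32.4 and 0.978 CPM and venules 58.6, 15.3, 94.5 and 49.7. The difference of arterioles from whole kidney was -0.25 (FDR 0.91) with all libraries, but without arteriole 96 it was -6.05 (FDR 0.0056), and 1 library decides the value. Its 3′ end shares no 50-base word with other genes.

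Rpl15 gave 25.6, 0, 59.5 and 33.0 CPM in arterioles and 0.994, 9.14, 9.68 and 0.196 in capillaries, around 46, 21.5, 32.5 and 22.3 in whole kidney. Rpl10a gave 296, 0.966, 119 and 80.1 CPM in arterioles and 60.9, 149, 0.741 and 8.84 in venules, against 37.9, 35.6, 38.3 and 43.4 in whole kidney. In these genes single microdissected libraries were near 0 while all whole kidney libraries held at least 21.5 CPM. The 19 least counted members shared a median of 80.5% of their 3′ words with other genes, against 22.3% for the other 57, and the part of this in their spread was not tested.

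Among 4 ribosomal proteins that the name rule does not reach, 1 passed the test in 1 comparison. Rps3a1, a small subunit protein, gave 702, 382, 217 and 115 CPM in arterioles and 99.0, 87.9, 118 and 102 in whole kidney, touching at the lower end (1.80, FDR 0.0608), and it was called higher against the other 3 compartments (1.62, FDR 0.0421). Fau, whose product yields a small subunit protein and a ubiquitin-like protein, gave 742, 777, 405 and 93 against 221, 303, 269 and 269 CPM (0.92, FDR 0.15). Rack1, a scaffold on the small subunit, gave 247, 519, 501 and 337 against 314, 288, 305 and 282 CPM (0.43, FDR 0.507).

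Of 9 paralogues, which replace a ribosomal protein in some tissues or resemble it, 7 could be tested. Rpl3l, the counterpart of Rpl3 in striated muscle, had 0 counts in all 4 arteriole libraries, 1.72, 2.53, 4.11 and 2.08 CPM in whole kidney and 7.95, 5.01, 6.65 and 0 CPM in capillaries. It was called lower in arterioles than in whole kidney (FDR 0.0442). Its whole kidney mean was 22.1-fold the level that 3 counts over the 4 arteriole libraries would give. That limit covers counting error and not the spread between libraries. Against the other 3 compartments it was higher in capillaries (FDR 0.0399), as 3 of 4 of those libraries were. Rps27l, a target of p53 that resembles Rps27, gave 20, 17.9, 31.6 and 281 CPM in arterioles and 240, 167, 206 and 187 in whole kidney (-1.19, FDR 0.189), so that arteriole 100 stood alone. Rpl36al gave 36.2, 711, 89.4 and 65.3 against 71.5, 68.0, 63.2 and 59.0 CPM (1.78, FDR 0.096). Rpl22l1, Rpl7l1, Rps4l and Rps27rt were not called in any comparison with whole kidney, Rpl10l had no counts, and 114 of the 115 counts of Rpl39l lay in venule libraries. The venule values of Rpl39l were 0.112, 0.122, 20.7 and 0 CPM, so nearly all of these counts came from library 98.

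The wider machinery of translation was examined through lists of named genes. Of 20 translation factors and other TOP mRNAs, 2 rose in arterioles against whole kidney and 0 fell, counts too small to set apart from the 5.78 and 5.55% of all genes, and the median log2 fold change was 0.99, beside 0.22 over all genes. These were Eef2, the factor that moves the ribosome along the mRNA (1.31, FDR 0.00122), and Eif3f, a subunit of an initiation factor (1.89, FDR 0.0343). The list's median was 0.14 in glomeruli, 0.00 in capillaries and 0.21 in venules against whole kidney. Against the other 3 compartments, Naca, which binds new chains at the tunnel exit (1.70, FDR 0.024), and Tpt1, a TOP mRNA of a growth-related protein (1.15, FDR 0.0497), were higher in arterioles. Gas5, a noncoding RNA with a TOP start, gave 8.58, 79.4, 61.0 and 10.4 CPM in capillaries and 178, 161, 181 and 188 in venules, and fell by 2.23 on the log2 scale in capillaries against the other 3 compartments (FDR 0.0318).

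Of 26 genes of ribosome biogenesis, 1 rose and 1 fell in arterioles against whole kidney, near the same background, with a median of 0.22, equal to that of all genes. Ncl, the nucleolar protein nucleolin, rose (1.47, FDR 0.0245), with 309, 1385, 558 and 454 CPM against 221, 233, 261 and 263. Wdr12, needed to mature the RNA of the large subunit, fell (FDR 0.0305), with 843 counts in whole kidney and 4 in arterioles, each over 4 libraries. Nob1, which trims the RNA of the small subunit, was called higher in arterioles than in the other 3 compartments (FDR 0.0153), though its arteriole libraries gave 0, 14.8, 0.225 and 156 CPM. Of 76 mitochondrial ribosomal proteins tested, 0 rose and 1 fell in arterioles against whole kidney, fewer than the background in both directions (5 at an unadjusted p under 0.05, all lower), and the medians were -0.11 in arterioles, -0.55 in glomeruli, 0.01 in capillaries and -0.03 in venules.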

How the data were processed

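QuantSeq 3′ mRNA libraries, in which a read near the 3′ end stands for a transcript, were sequenced for 20 samples. The authors used bbduk for trimming and STAR for alignment to GRCm38.p6, counted reads per gene with htseq-count, and deposited raw counts with no normalization. The submitters' processing notes list STAR 2.7, HTSeq 0.13, SAMtools 1.9, FastQC 0.11.8, MultiQC 1.7 and featureCounts, without roles. Strand setting and molecular identifiers are not stated in the labels or methods, so intervals cover counting error only. Of 168 value columns 20 were used and 148 were not. Columns were assigned to groups by the table's header, and their numbers (93, 96, 98, 100) name the libraries but not the labelled replicates. One capillary column, 96, carries extra letters of unstated meaning.

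Counts were tested in R 4.3.3 with edgeR 4.0.16 (TMM, filterByExpr by group, quasi-likelihood F test in its earlier form), over 20 libraries and 13813 genes against whole kidney and over 16 libraries and 12179 genes for each compartment against the mean of the other 3. A call is an FDR under 0.05 over all genes tested, and all 76 members passed both filters. SE is the size of the log2 fold change divided by the root of its F statistic, an approximation. Shares are percentages of all counts. CPM is not divided by transcript length. The scripts were tested on simulated counts. DESeq2 1.42.0, other scalings, no filter, left-out libraries, a replicate block and fits without the capillary libraries, the last chosen after seeing the data, served as alternatives.

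The members and lists were chosen with earlier results of these data known, and no test was made over a list. Genes named were those with the smallest p in each comparison (up to 4 per direction, 2 where none was called), the 6 smallest among the 4 compartments, the 6 most and 4 least counted, the 4 most and least even over groups, and those of fixed role. The called genes named without statistics and the genes outside the family were named after their values were seen. Positions are from GENCODE M21 (GRCm38) and start sequences from RefSeq (GRCm38.p6). Some items are not reported here.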

Additional observations from a re-analysis of the deposited data

Results flagged for a closer look

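Within groups of 4 libraries, 22 of 201 sets of values had 1 library far from the other 3 (by Dixon's 95% criterion on the gap). The criterion marks about 1 in 20 sets of independent, normally distributed values. The sets here share libraries and some rest on few counts, so that rate cannot be carried over to them. Arteriole 96 was the high library for 7 genes: Rpl13a (142 CPM), Rpl36al (711), Rps16 (860), Rps2 (1041), Rps27a (560), Rps4l (68.4) and Rps6 (85). It also had the lowest TMM factor, 0.545, which raises its CPM, and the part of this in these values was not tested. Arteriole 100 was apart for Rps27l, at 281 CPM. Among glomerular libraries, 96 was apart for Rpl37a (1308 CPM) and Rpl3l (3.87), 98 for Rps14 (886) and Rps25 (449), and 93 for Rpl39l, at 0.10 CPM, which is 1 count. Among capillary libraries, 100 stood apart for Rpl21 (586 CPM), 96 for Rps27a (2.80), 98 for Rps4l (29.7) and 93 for Rps6 (16). Venule 98 was apart for Rplp2 (862 CPM) and Rpl39l (20.7). In whole kidney, where libraries agreed most, the library apart lay below the others in all 3 cases, 100 for Rpl32 (427 CPM), 93 for Rplp1 (834) and 96 for Rps29 (886).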

How the results depend on the processing

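The called genes outside the family were not followed through the alternatives. No called difference of a member turned its direction under any alternative. The family's level in capillaries against whole kidney did, from a lower share of all counts to 2.30 against 2.26% with TMM scaling, and so did several family medians near 0, given above. The scaling mattered most. With library totals, members called higher in arterioles numbered 6 against whole kidney and 5 against the other compartments, 2 were higher in glomeruli against whole kidney and 12 lower in capillaries against the other compartments. Scaled to the members' own sum, the counts were 1 higher and 2 lower in arterioles against whole kidney, 0 higher in arterioles and 0 lower in capillaries against the other compartments, and 0 differing among the 4. DESeq2's size factors gave 36 higher in arterioles against the other compartments. The DESeq2 test gave 32 and 39 higher in arterioles, 1 higher in venules against whole kidney, 1 lower in glomeruli and 8 lower in capillaries against the other compartments, and 28 differing among the 4. EdgeR's newer form gave 2 higher in glomeruli against whole kidney, and 25 higher in arterioles, 1 lower in glomeruli and 4 lower in capillaries against the other compartments. Without a filter 1 was lower in glomeruli, and a log2 fold change past 1 left 1 lower in capillaries. Fits of only the 8 libraries compared with whole kidney gave 4 higher and 6 lower in glomeruli, 4 lower in capillaries and 13 higher in venules. Without the capillary libraries, 1 member was higher in glomeruli against whole kidney, and 9 were higher in arterioles against the other compartments. The cause of these shifts was not tested.

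Leaving out 1 library gave 11 to 26 higher in arterioles against whole kidney, with 13 without whole kidney 96 or 98 and 11 without whole kidney 100, and 0 to 1 lower (Rpl13a, without arteriole 96). Against the other compartments it gave 11 to 25 higher (25 without capillary 100) and 0 to 1 lower (without arteriole 96) in arterioles, 0 to 1 higher (without arteriole 96) and 0 to 1 lower (without arteriole 93 or capillary 100) in glomeruli, and 0 to 5 lower in capillaries (5 and 4 without arteriole 93 and 96, 1 without venule 96 or 100, 0 without capillary 93, 96 or 98). In glomeruli against whole kidney it gave 0 to 1 higher (without arteriole 96), and among the 4 compartments 6 to 13, with 7 and 6 without capillary 93 and 96. Of the 21 members called against whole kidney 11 kept the call whichever library was left out, as did 6 of the 15 against the other compartments and 0 of the 2 in capillaries.

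The family's share without mitochondrially encoded and erythrocyte genes in the total was 4.04% in arterioles, 2.10% in capillaries, 3.59% in venules and 3.11% in whole kidney. Without the 3 most counted members it was 3.09, 2.81, 1.65, 2.57 and 2.35% in arterioles, glomeruli, capillaries, venules and whole kidney, and with the other ribosomal proteins and pseudogenes added 2.81% in whole kidney.

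With the library number as a replicate block, 21 and 12 members were higher in arterioles against whole kidney and the other compartments, 2 were lower in capillaries and 9 differed among the 4. Libraries of the same number did not deviate together (mean correlation 0.0079, over 40 pairs), and nothing used here says whether the number marks a mouse, so pairing by mouse was not settled.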
